A study of Mus musculus with 7 samples.

Results

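The 10 genes described here encode vascular endothelial growth factors (Vegfa, Vegfb and Vegfc), their receptor tyrosine kinases (Flt1, Kdr and Flt4), the angiopoietins (Angpt1 and Angpt2), the angiopoietin receptor Tek, and the endothelial cadherin Cdh5. They were chosen by name, and their 20 probe sets are those annotated to exactly 1 of these symbols, out of 34945 probe sets with 1 symbol and 18193 genes on the array. Each gene is represented by its probe set of highest mean log2 signal, and the others are given beside it. The question was whether transcripts of angiogenic ligands, or those of the receptors carried by vessels, differed with diet.

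The tissue was the mammary gland of virgin females of the strain FVB/PyV-Mt, taken at 8 weeks of age. Every mouse carried the polyoma middle T oncogene, so no gland without the transgene is compared. The CLA group (4 glands, 1 array each) had eaten chow supplemented with 1% conjugated linoleic acid for 4 weeks. The control group (3 glands, 1 array each) had eaten control chow. Values are MAS5 signals on a linear scale, a measure of brightness that includes each probe set's own affinity, so levels are not compared between genes. Conjugated linoleic acid is a mixture of linoleic acid isomers with conjugated double bonds.

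Across the array 0 of 12497 genes tested (0%) had a limma adjusted p under 0.05, and 674 (5.39%) had an unadjusted p under 0.05. The leading digits of the experiment numbers in the sample titles were 27 for CLA replicate 1 and control replicate 1 and 28 for the other arrays (no source explains these digits), called the 27 and the 28 arrays here. Epithelial markers were present on every array, with a summed signal of 16 genes between 103371 and 114543 in CLA glands and between 96539 and 118205 in control glands. Endothelial markers were present too, at a summed signal of 20 genes between 7950 and 9841 in CLA glands and between 8683 and 10532 in control glands. With 7 arrays, precision is set by their number.

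Vascular endothelial growth factor A binds Kdr, the main signalling receptor of endothelial cells, and Flt1, which binds it tightly but signals weakly and can act as a decoy. Vegfb binds Flt1, and Vegfc binds Flt4, the receptor of lymphatic endothelium. Angpt1, made by cells around vessels, activates Tek and stabilises vessels, while Angpt2, released by endothelial cells, can oppose it. In the mammary gland these signals reach capillaries of the fat pad, and adipocytes and tumour epithelium are both known sources of Vegfa.

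None of the 10 genes passed the test between diets. All 10 passed the filter on mean signal, and 0 of 10 had a limma adjusted p under 0.05 or an unadjusted p under 0.05. Of the 10 log2 changes, CLA minus control, 6 were negative and 4 positive, against 44.7% negative among all genes tested. The median was -0.22, against 0.03 over all genes tested. Flt1 was the member whose groups did not overlap, 1 of 10 genes where 5.31% of all genes tested had separate groups. Of their 20 probe sets 18 passed the filter, of which 0 had an unadjusted p under 0.05 (5.48% of all probe sets tested), 1 had separate groups (6.08%) and 12 had negative changes (49.3%). In bulk tissue, fewer cells of a type and less RNA per cell cannot be told apart in any of these values.

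**Figure D1:**
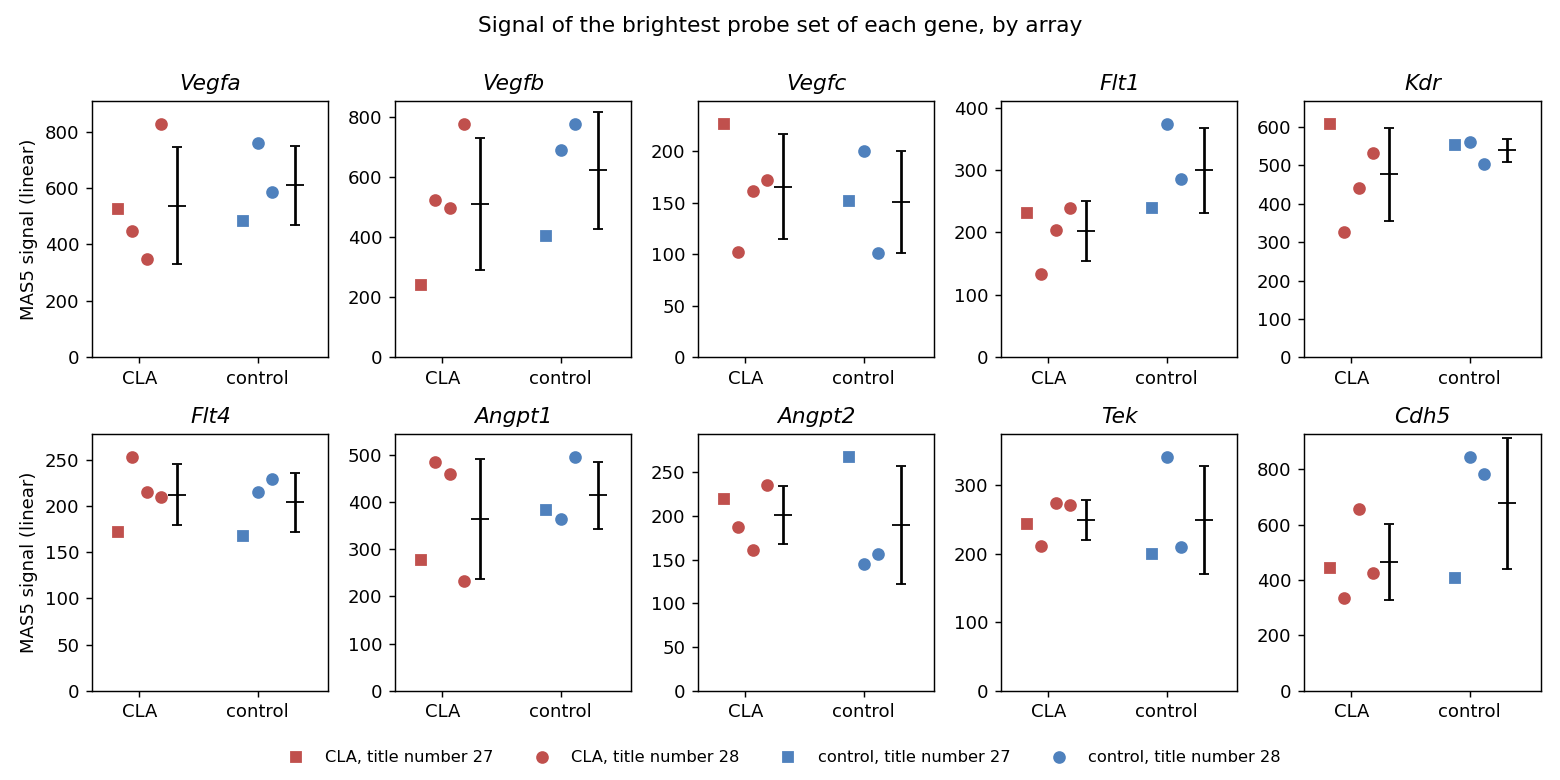
MAS5 signal (linear axis from 0) of the brightest probe set of each of the 10 genes on the 4 CLA and 3 control arrays. Squares mark title numbers starting with 27 and circles those starting with 28, and the bars to the right of the points give the mean and SD. The groups overlap in every panel except Flt1, where the highest CLA array (239.81) lies just under the lowest control array (239.95).

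Among the ligands, Vegfa overlapped between the diets. Its brightest probe set had signals of 525, 449, 348 and 828 on CLA replicates 1 to 4, against 483, 762 and 586 on control replicates 1 to 3. Both the lowest and the highest of the 7 arrays were CLA glands. The means were 538 ± 207 (SD, n = 4) in CLA glands and 610 ± 141 (SD, n = 3) in control glands, a log2 change of -0.23 ± 0.29 (SE) with a 95% interval from -0.88 to 0.42 and a limma adjusted p of 0.996.

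The second Vegfa probe set, 1451959_a_at, was dimmer and gave a log2 change of -0.62 with a 95% interval from -2.42 to 1.18. CLA replicate 3 gave 15.2, whereas the remaining CLA glands gave 155 to 225 and the control glands 123 to 177. The same array had an Actb 3′ over 5′ ratio, a sign of RNA integrity, of 2.78, where the other 6 had 1.41 to 1.88. The part of RNA quality in the low value was not tested.

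Vegfb, a ligand of Flt1, overlapped between the diets. Its single probe set gave 241, 525, 499 and 778 on CLA replicates 1 to 4, against 403, 690 and 777 on control replicates 1 to 3. In each group the lowest array was the one whose title number starts with 27. Vegfb had a log2 change of -0.35 ± 0.38 (SE), with an interval from -1.20 to 0.50 and a limma adjusted p of 0.986. Within title numbers starting with 27 it was -0.74 from 1 array per group, and within those starting with 28 it was -0.31. Leaving out CLA replicate 1 gave -0.028.

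Vegfc, the lymphatic growth factor, was measured by 3 probe sets, all dim and all overlapping. The brightest gave 227, 102, 162 and 173 in CLA glands, against 152, 200 and 101 in control glands, a log2 change of 0.13 ± 0.33 (SE) and a limma adjusted p of 0.997. The other 2 gave 0.33 and 0.03. On each of the 3 probe sets the lowest CLA array was replicate 2 and the highest control array was replicate 2.

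The receptors of these ligands did not share 1 pattern. Flt1 had the largest change of the 10 genes and Flt4 one near 0, but their intervals overlap and the difference between receptors was not tested. The sequence upstream of each receptor gene's annotated start is shown here because these 4 receptors are all carried by endothelial cells. Letters are from the RefSeq table of build GRCm38.p6, 250 bases ending at the base before the start, on the gene's own strand, and 7 of the 10 genes matched the table. Capitals mark GGAA or its complement, the core bound by ETS factors, which are known regulators of endothelial genes, and TGACGTCA, the cAMP response element, each searched on both strands. The windows are chr5:147726012-147726261 on the minus strand for Flt1, chr5:75978456-75978705 on the minus strand for Kdr, chr11:49609429-49609678 on the plus strand for Flt4, and chr4:94739039-94739288 on the plus strand for Tek.
Flt1: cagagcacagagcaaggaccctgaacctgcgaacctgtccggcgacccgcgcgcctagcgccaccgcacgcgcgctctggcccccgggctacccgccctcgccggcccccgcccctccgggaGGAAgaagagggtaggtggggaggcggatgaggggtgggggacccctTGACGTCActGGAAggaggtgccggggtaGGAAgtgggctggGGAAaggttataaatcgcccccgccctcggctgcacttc
Kdr: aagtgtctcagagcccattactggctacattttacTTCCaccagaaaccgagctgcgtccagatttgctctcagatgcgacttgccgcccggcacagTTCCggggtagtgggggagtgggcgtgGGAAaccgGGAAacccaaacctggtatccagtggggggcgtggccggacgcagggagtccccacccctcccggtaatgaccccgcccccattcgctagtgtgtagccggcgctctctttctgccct
Flt4: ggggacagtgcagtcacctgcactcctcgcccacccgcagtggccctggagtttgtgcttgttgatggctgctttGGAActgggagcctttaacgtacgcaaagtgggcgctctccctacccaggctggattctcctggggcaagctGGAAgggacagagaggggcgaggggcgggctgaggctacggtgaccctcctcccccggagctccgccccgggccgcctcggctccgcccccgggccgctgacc
Tek: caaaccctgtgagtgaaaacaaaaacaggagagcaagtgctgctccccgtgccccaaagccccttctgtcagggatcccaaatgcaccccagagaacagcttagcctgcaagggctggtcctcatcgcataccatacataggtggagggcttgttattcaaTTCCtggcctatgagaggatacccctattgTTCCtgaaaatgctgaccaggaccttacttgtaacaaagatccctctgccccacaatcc

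The Flt1 window held 4 GGAA cores and 1 TGACGTCA, the Kdr window 4 GGAA cores, and the Flt4 and Tek windows 2 each. GGAA occurred in 93.4% of the 32851 windows of this length in the table, and TGACGTCA in 1.55%. ACGTG, the core of the hypoxia response element, occurred in 16.6% of all windows and in none of these 4. The motifs do not overlap each other here. A match describes the letters only.

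For Flt1 the signals of the brightest probe set, 1419300_at, were 232, 134, 203 and 239.81 on CLA replicates 1 to 4, against 239.95, 374 and 286 on control replicates 1 to 3. The groups were separate by a gap far smaller than the spread within either of them. The means were 202 ± 48.3 (SD, n = 4) and 299.9 ± 68.2 (SD, n = 3). The log2 change was -0.58 ± 0.27 (SE), with a 95% interval from -1.18 to 0.02, a limma p of 0.0551 before adjustment and 0.904 after it.

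For Flt1 the 27 arrays, 1 per group, differed by -0.05 and the 28 arrays by -0.81, and a fit with the title number as a block gave -0.58. With the white adipocyte score of each array as a covariate the Flt1 coefficient was -0.01, and with that of muscle markers -0.16. Adipocyte scores did not overlap between the diets, so their part in the Flt1 difference and that of diet cannot be told apart.

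The other 3 Flt1 probe sets overlapped between the diets. The next brightest, 1451756_at, gave 249, 174, 103 and 273 in CLA glands, against 269, 271 and 259 in control glands, so that 1 CLA gland was above every control gland. Its log2 change was -0.51 ± 0.33 (SE). Its lowest array was CLA replicate 3, which had the Actb ratio of 2.78, whereas the brightest probe set was lowest on CLA replicate 2. The remaining probe sets gave -0.08 and -0.12.

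Kdr, the main receptor of Vegfa, had 609, 327, 442 and 532 in CLA glands, against 552, 562 and 505 in control glands. The control glands lay within a narrow range, and CLA glands lay on both sides of it. Kdr had a log2 change of -0.21 ± 0.22 (SE), with an interval from -0.71 to 0.28 and a limma adjusted p of 0.985. CLA replicate 2 had the lowest Kdr and the lowest Flt1 signal of all 7 arrays.

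Flt4, the receptor of Vegfc, had 172, 253, 215 and 210 on its brightest probe set in CLA glands, against 168, 216 and 229 in control glands. The log2 change was 0.06 ± 0.22 (SE), with an interval from -0.44 to 0.56. Its second probe set, which was dimmer, had the other sign, -0.27 ± 0.30 (SE).

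**Figure D2:**
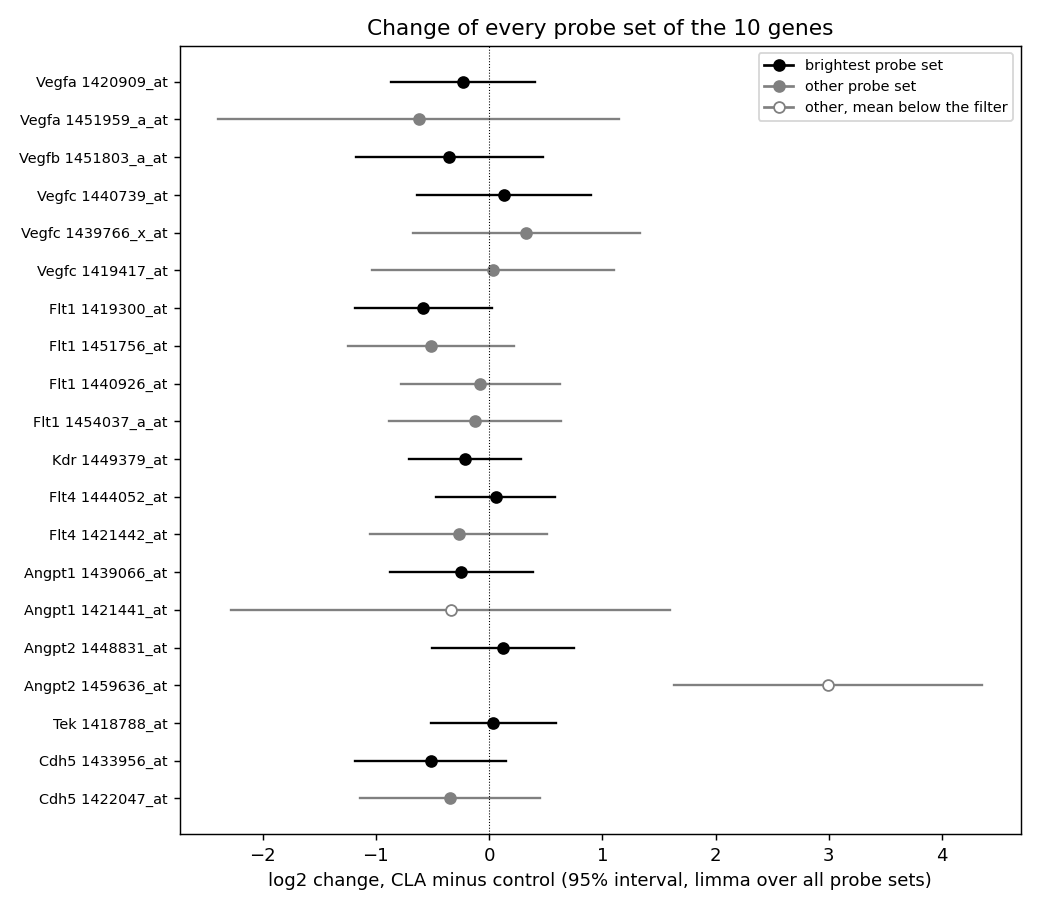
Log2 change, CLA minus control, of all 20 probe sets of the 10 genes, with 95% intervals from a limma fit over all probe sets without a filter. Black marks the brightest probe set of a gene, grey the others, and open circles the 2 probe sets whose mean lay below the filter. The intervals include 0 for every probe set except 1459636_at of Angpt2, at 2.99.

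The angiopoietins overlapped between the diets on their brightest probe sets. Angpt1 had 278, 486, 459 and 232 in CLA glands, against 384, 363 and 495 in control glands. CLA replicates 1 and 4 lay below every control gland and the other CLA glands lay among them. Angpt1 had a log2 change of -0.24 ± 0.29 (SE), with an interval from -0.88 to 0.40 and a limma adjusted p of 0.993.

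Angpt2 had 220, 188, 161 and 235 in CLA glands, against 267, 145 and 156 in control glands on its brightest probe set, 1448831_at. Control replicate 1 had the highest signal and control replicate 2 the lowest of all 7 arrays. The log2 change was 0.12 ± 0.27 (SE), with an interval from -0.48 to 0.73 and a limma adjusted p of 0.997.

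The second Angpt2 probe set, 1459636_at, gave a different picture at a very low level. Its signals were 42.8, 34.0, 25.9 and 28.1 in CLA glands, against 5.56, 4.61 and 2.55 in control glands. Every CLA gland lay above every control gland, and every value lay below the filter signal of 57.7, so it was not among the probe sets tested. In a fit of all 45037 probe sets without a filter the log2 change was 2.99 (95% interval 1.63 to 4.35), with a limma p of 0.000607 before adjustment and 0.670 after it. Of all those probe sets 5.94% had separate groups and 5.21% an unadjusted p under 0.05. With pseudocounts of 16 and 64, tried on this probe set after its values were seen, the change was 1.26 and 0.50, so its size depends on how low signals are treated. The 2 Angpt2 probe sets thus disagree, and the change of the gene is uncertain.

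Tek, the angiopoietin receptor, had nearly equal means, 249.4 ± 29.3 (SD, n = 4) in CLA glands and 249.5 ± 78.9 (SD, n = 3) in control glands. The arrays gave 243, 211, 273 and 271 in CLA glands, against 199, 340 and 209 in control glands. The CLA glands all lay within the range of the control glands. Tek had a log2 change of 0.04 ± 0.24 (SE), with an interval from -0.50 to 0.57.

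Cdh5, the cadherin of endothelial adherens junctions, had the second largest change of the 10 genes. Its brightest probe set gave 442, 335, 656 and 424 in CLA glands, against 406, 843 and 782 in control glands. Control replicate 1 lay among the CLA glands, and the other control glands lay above all of them. The log2 change was -0.52 ± 0.30 (SE), with an interval from -1.19 to 0.16, a limma p of 0.119 before adjustment and 0.931 after it. The dimmer probe set gave -0.34 ± 0.31 (SE).

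For Cdh5 the 27 arrays, 1 per group, differed by 0.12 and the 28 arrays by -0.84, and the difference between these values was not tested. Leaving out control replicate 1, the Cdh5 log2 change was -0.85 and the limma adjusted p was 0.267, and without control replicate 2 the change was -0.32. As covariates, the muscle score gave a Cdh5 coefficient of -0.07 and the white adipocyte score -0.48.

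Ligands were next set against the receptors that bind them. Of the 5 ligands, 3 had negative and 2 positive changes, with a median of -0.23. Of the 4 receptors, 2 had negative and 2 positive changes, with a median of -0.09. Among all genes tested 44.7% had negative changes. For 6 ligand and receptor pairs the log2 signal of the ligand minus that of the receptor was taken on each array and expressed relative to the control mean, so that only its change with diet is read. None of the 6 pairs had separate groups, and the exact permutation p, two-sided over 35 splits with the smaller one-sided share doubled, ran from 0.40 to 0.971. Its lower limit with 4 against 3 arrays is 0.0571, so it cannot reach 0.05.

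Vegfa relative to Flt1 had the largest difference of the 6. It was 0.16, 0.72, -0.25 and 0.76 in CLA glands, against -0.01, 0.00 and 0.01 in control glands. The 3 control glands were almost equal, and the CLA glands lay on both sides of them. The difference was 0.35, with an SD of 0.49 in CLA glands and 0.01 in control glands, an exact permutation p of 0.40 and an adjusted p of 0.971 over the 6 pairs. With each gene as the mean of its probe sets it was -0.10.

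Vegfa relative to Kdr had a difference of -0.02, from -0.50 to 0.48 in CLA glands and from -0.35 to 0.29 in control glands. Vegfb relative to Flt1 gave 0.23 and Vegfc relative to Flt4 gave 0.08. Angpt1 relative to Tek gave -0.28 and Angpt2 relative to Tek 0.09. CLA and control ranges overlapped in each of these 5 pairs, and their adjusted exact permutation p was 0.971. With each gene as the mean of its probe sets, which brings in the dim Angpt2 probe set, Angpt2 relative to Tek was 1.52 with an exact permutation p of 0.0571. These pairs share Vegfa, Flt1 and Tek, so they are not independent of each other.

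**Figure D3:**
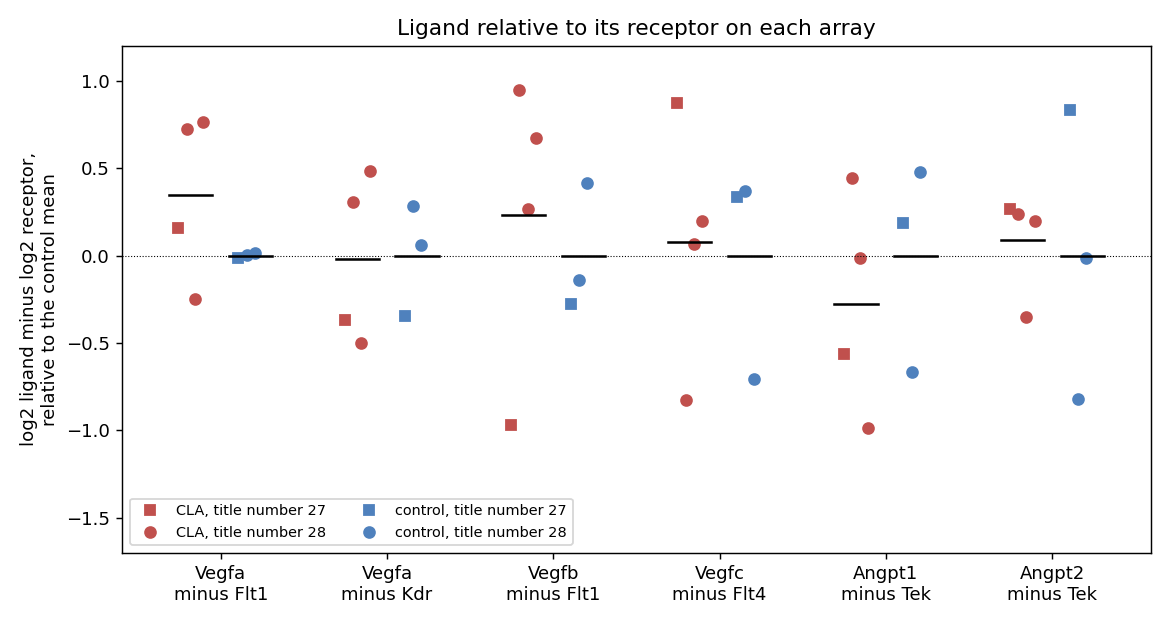
Log2 signal of a ligand minus that of its receptor on each array, relative to the mean of the control arrays, for 6 pairs. Squares mark title numbers starting with 27, circles those starting with 28, and lines the group means. CLA arrays, between -0.25 and 0.76, lie on both sides of the 3 control arrays for Vegfa minus Flt1, and the groups overlap in all 6 pairs.

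Other genes of the pathway were examined as a list of 28, of which 27 were on the array under 1 symbol and 24 passed the filter. None passed over all genes, 0 of 24. At an unadjusted p under 0.05, 2 of the 24 had lower and 0 higher signal, where 3.01% and 2.38% of all genes tested did. The median log2 change was -0.14, with 18 negative and 6 positive, where 44.7% of all genes tested were negative. Groups were separate for 3 genes, Nos3, Ptprb and Rasip1, all lower in CLA glands, 3 of 24 where 5.31% of all genes tested were separate.

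Nos3, the nitric oxide synthase of endothelium that acts downstream of Kdr, had the smallest p of the list. It gave 211, 183, 189 and 302 in CLA glands, against 320, 364 and 316 in control glands. Every CLA gland lay below every control gland. The log2 change was -0.62 ± 0.22 (SE), with a limma p of 0.0210 before adjustment and 0.834 after it. It was similar within title numbers starting with 27, at -0.60, and within those starting with 28, at -0.63. With the white adipocyte score as a covariate the coefficient was 0.12. That score did not overlap between the diets, so its part in Nos3 and that of diet cannot be told apart.

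Angptl4, a secreted inhibitor of lipoprotein lipase that is abundant in fat, had 890, 1854, 860 and 1325 in CLA glands, against 2201, 1811 and 1764 in control glands. CLA replicate 2 lay among the control glands and the other CLA glands below them. Its log2 change was -0.71 ± 0.26 (SE), with a limma p of 0.0228 before adjustment and 0.855 after it. With the mean of its probe sets the Angptl4 change was -0.44, with a limma p of 0.199 before adjustment. Pgf, placental growth factor, a ligand of Flt1, had 274, 406, 625 and 229 in CLA glands, against 235, 147 and 262 in control glands. The change of Pgf was 0.77 ± 0.36 (SE), in the other direction from Flt1, with a limma adjusted p of 0.904, and CLA replicate 4 lay among the control glands. Vegfd, the other lymphatic growth factor, had -0.12, and the co-receptors Nrp1 and Nrp2 had -0.30 and -0.36. Ptprb, the phosphatase that restrains Tek, had -0.39 and Tie1, the partner of Tek, had -0.53, neither past the test.

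Endothelial markers outside the 10 genes gave no single direction. Of 20 tested, 0 passed over all genes, 14 changes were negative (44.7% over all genes tested) and 6 positive, and the median was -0.16. Those with an unadjusted p under 0.05 were 1 lower, Adgrf5, an adhesion receptor of capillaries, and 1 higher, Clec14a, a C-type lectin of tumour vessels, where 3.01% of all genes tested were lower and 2.38% higher. Adgrf5 had 550, 474, 623 and 545 in CLA glands, against 635, 960 and 835 in control glands. Its log2 change was -0.55 ± 0.19 (SE), with a limma adjusted p of 0.797. Clec14a had 263, 205, 256 and 240.3 in CLA glands, against 161, 161 and 191 in control glands, a change of 0.49 ± 0.20 (SE) and a limma adjusted p of 0.878. With the mean of its probe sets the Clec14a change was 0.025, so its probe sets disagree. Esam, an adhesion molecule of endothelial junctions, had -0.31, while Pecam1 and Emcn, standard vessel markers, had 0.18 and -0.05.

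Lymphatic markers rested on 3 tested genes of 7 listed, none past the test and none with separate groups. Pdpn, which is also expressed outside lymphatics, had 0.40, the hyaluronan receptor gene Lyve1 -0.26 and Reln 0.11. The lymphatic regulator Prox1 lay below the filter, and so did Mmrn1. Prox1 had 77.2, 47.7, 13.9 and 16.7 in CLA glands, against 76.7, 67.3 and 39.5 in control glands. Its groups overlapped, with a lower mean log2 signal in CLA glands (4.92 against 5.88), the other direction from Mmrn1. Mmrn1 had 37.4, 43.6, 28.7 and 39.6 in CLA glands, against 27.5, 23.1 and 23.9 in control glands. Every CLA gland thus lay above every control gland, where 5.94% of all probe sets without a filter had separate groups. Of 8 pericyte markers none passed the test, and 5 were negative (44.7% over all genes tested) and 3 positive. Those of smallest p were Cspg4 at -0.39, Rgs5 at -0.31 and Abcc9 at -0.21. With the mean of the probe sets of each gene the changes were -0.77, -0.52 and -0.06, so they depend on the probe set. Their limma p in that fit was 0.0198, 0.0366 and 0.793 before adjustment, and 0.882, 0.903 and 0.997 after it. In the same fit 625 of 11654 genes had an unadjusted p under 0.05.

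Genes of the hypoxia response, a known inducer of Vegfa, had changes of both signs. Of 17 tested, 0 passed over all genes, 2 were lower and 2 higher at an unadjusted p under 0.05 (3.01% and 2.38% of all genes tested), and the median change was -0.07. Bnip3, a mitophagy receptor, had 622, 713, 686 and 1076 in CLA glands, against 1376, 1555 and 1130 in control glands. All CLA glands lay below all control glands, with a log2 change of -0.83 ± 0.21 (SE) and a limma adjusted p of 0.688. Egln3, a prolyl hydroxylase that is itself induced by hypoxia, had 2454, 2151, 2275 and 2660 in CLA glands, against 1880, 1409 and 1591 in control glands. Here all CLA glands lay above all control glands, with a change of 0.56 ± 0.15 (SE) and a limma adjusted p of 0.688. Ddit4, a stress-induced inhibitor of growth signalling, had 0.47, and the endothelial hypoxia factor Epas1, chosen after its values were seen, had -0.43. With the white adipocyte score as a covariate the coefficients were -0.036 for Bnip3, 0.098 for Ddit4 and 0.75 for Egln3. That score did not overlap between the diets, so its part in these genes and that of diet cannot be told apart.

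The genes whose log2 signal over the 7 arrays was most like that of Cdh5, by Pearson r among all genes tested, were Fcgbp (r = 0.979), Atp6v0a2 (0.968), Jcad (0.966), Cyp27a1 (0.964), Rabgef1 (0.961) and Atp6v1a (0.954). Jcad encodes a protein of endothelial cell junctions, Atp6v0a2 and Atp6v1a encode subunits of the vacuolar proton pump, and Cyp27a1 is a sterol hydroxylase. Most like Vegfa were Gne (r = 0.968), Sik1 (0.966), Atp1b1 (0.963), Lipg (0.962), Gmppb (0.960) and Wipi1 (0.959). Gne starts sialic acid synthesis, Sik1 is a salt-inducible kinase, Atp1b1 is a sodium pump subunit and Lipg is endothelial lipase. These ranks describe 7 arrays of both diets, and the highest of the 12497 genes tested, less those left out, is high by selection.

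No marker of another cell type passed the test over all genes. Of 14 white adipocyte markers tested, 12 had lower signal in CLA glands at an unadjusted p under 0.05, where 3.01% of all genes tested did. Their summed signal was between 24942 and 67454 in CLA glands and between 73680 and 91316 in control glands. The mean centred log2 signal of this list was -0.80, -0.91, -0.79 and 0.30 on CLA replicates 1 to 4, against 0.68, 0.89 and 0.63 on control replicates 1 to 3. CLA replicate 4, the CLA gland nearest to the control glands for adipocyte markers, also had the highest Vegfa, Vegfb and Flt1 signals of the CLA group. With this score as a covariate the Vegfa coefficient was 0.85 and that of Vegfb 0.67, both with the opposite sign. Their limma p before adjustment was 0.0641 and 0.337. The Angpt1 coefficient was -1.18. Angpt1 was then the 1 member at an unadjusted p under 0.05, as were 714 of 12497 genes tested. This score did not overlap between the diets, so in every fit with it the part of adipocyte content and that of diet cannot be told apart. With the muscle score the Vegfb coefficient was -0.98.

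Skeletal muscle markers had lower signal in CLA glands at an unadjusted p under 0.05 in 15 of 15 tested, against 3.01% of all genes tested. Past the test over all genes were 0 of these markers. Their score was 1.37, -3.35, -1.29 and -3.33 on CLA replicates 1 to 4, against 0.87, 4.20 and 1.53 on control replicates 1 to 3. Control replicate 2, the array with the most muscle signal, also had the highest Flt1, Tek and Cdh5 signals of all 7 arrays. CLA replicates 2 and 4, with nearly equal muscle scores, had the lowest (134) and the highest (239.81) Flt1 signal of the CLA group. Epithelial scores were between 0.04 and 0.31 in CLA glands and between -0.39 and -0.07 in control glands, and so did not overlap. Of 16 epithelial markers tested, 4 were higher and 1 lower at an unadjusted p under 0.05, where 2.38% and 3.01% of all genes tested were. Adipocyte or muscle scores were covariates in the fits given above, and no fit used the epithelial score. For the adipocyte and epithelial scores, their part in the values of the 10 genes and that of diet cannot be told apart. Muscle scores overlapped between the diets, and the part of muscle content was not tested beyond those fits.

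**Figure D4:**
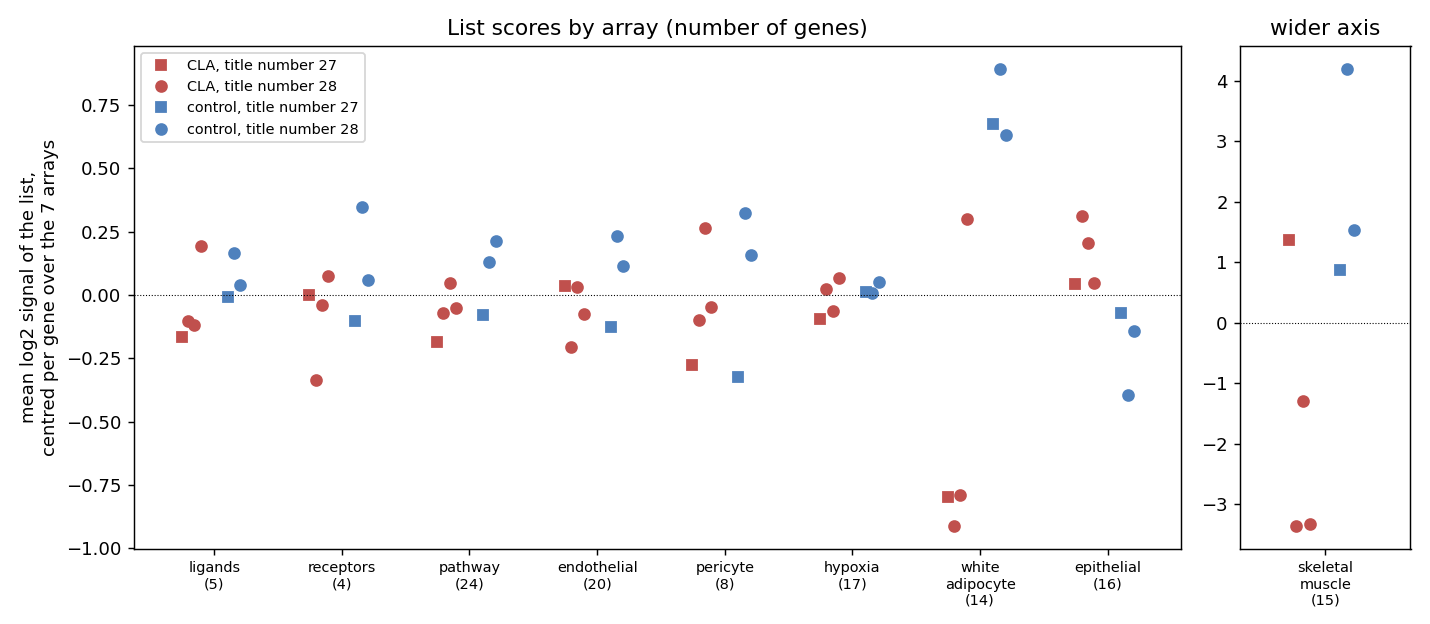
Mean log2 signal of each gene list on each array, centred per gene over the 7 arrays, with the number of genes tested in brackets. CLA arrays are left of control arrays, squares mark title numbers starting with 27 and circles those starting with 28, and skeletal muscle has its own, wider axis. White adipocyte scores do not overlap between the diets (-0.91 to 0.30 in CLA glands, 0.63 to 0.89 in control glands). Epithelial scores do not overlap either (0.04 to 0.31 in CLA glands, -0.39 to -0.07 in control glands), whereas those of ligands and receptors do.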

How the data were processed

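RNA from 7 glands was hybridised, 1 gland per Affymetrix array, per the labels' protocols. The authors deposited signal intensities of 45101 probe sets, made with MAS5 per the submitters' processing notes; its version was not given in the sources used here. The mean signal after trimming 2% at each end was 500.003 on every array, and this scaling was kept.

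Diet labels gave the groups; that arrays are separate mice is taken from the labels. Signals had a floor of 1 and were put on the log2 scale. The 64 control probe sets were left out, and gene symbols of the 34945 probe sets with 1 symbol were updated through RefSeq's table (34741 matched). A gene was tested if its mean reached the 40th percentile, a signal of 57.7 (12497 genes). Differences came from limma 3.58.1 (R 4.3.3; lmFit and eBayes with trend, two-sided), with Benjamini-Hochberg adjustment across the tested genes; adjusted p under 0.05 passed. Probe sets had a fit of their own. A list's score is its members' mean log2 signal after centring each gene. Figures used matplotlib 3.10.9.

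The members, lists and alternatives were chosen with earlier results of these data known. Named are all members, the 3 genes of smallest p in each pathway or vascular list, and the 6 genes most like Cdh5 and Vegfa. Ptprb, Rasip1, Tie1, Nrp1, Nrp2, Vegfd, Epas1, Pecam1, Emcn, Prox1, Mmrn1 and the single epithelial markers were added after their values were seen. Alternatives were other normalizations, pseudocounts, filters, probe set means, an untrended fit, marker scores as covariates, title number, and each array left out.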

Additional observations from a re-analysis of the deposited data

Results flagged for a closer look

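Among 41 values of single genes, probe sets and pairs examined for a far array within the 4 CLA glands, 3 stood out by the share of the range that lies between the extreme array and its neighbour, past Dixon's 95% critical value. Chance gives about 1 in 20 such cases. The second Vegfa probe set, 1451959_a_at, had a share of 0.862, from the signal of 15.2 on CLA replicate 3. The Vegfc probe set 1439766_x_at had a share of 0.845, from 99.3 on CLA replicate 2 against 158 to 171 on the other CLA arrays. Angpt2 minus Tek had a share of 0.896, from -0.35 on CLA replicate 3 against 0.20 to 0.26 on the other CLA arrays.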

How the results depend on the processing

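No member and no pathway gene passed the limma adjusted test under any alternative run. Members at an unadjusted p under 0.05 numbered 0, but 1 in eBayes without trend, 1 with the white adipocyte score as covariate, 2 in the 28 arrays alone and 0 to 2 with single arrays left out. Pathway genes at that level numbered 2, but 1 with the mean of the probe sets of a gene, 1 with either score as covariate, 3 with the title number as a block, 3 in the 28 arrays alone and 1 to 4 with single arrays left out. Among all genes tested, those at that level numbered 674 of 12497 with the processing kept here. They numbered 711 without trend, 935 with the title number as a block and 1227 in the 28 arrays alone. With the adipocyte score they numbered 714 and with the muscle score 315. With single arrays left out they numbered 380 to 1380, and with the mean of probe sets 625 of 11654. The mean of probe sets turned Flt4 (-0.11), Vegfa minus Flt1 (-0.10) and Vegfb minus Flt1 (-0.027). The muscle score turned Kdr (0.12), Flt4 (-0.10), Angpt2 (-0.089), Reln (-0.047) and Abcc9 (0.23). The adipocyte score turned Vegfa (0.85), Vegfb (0.67), Kdr (0.15), Nos3 (0.12), Pgf (-0.29), Lyve1 (0.30) and Cspg4 (0.25). The 28 arrays alone turned Vegfc (-0.0020), Tek (-0.10), Reln (-0.28) and Vegfc minus Flt4 (-0.021). With single arrays left out, log2 changes ran from -0.13 to 0.37 for Vegfc, -0.078 to 0.15 for Flt4, -0.041 to 0.40 for Angpt2, -0.11 to 0.28 for Tek and -0.36 to 0.60 for Reln. Pair differences ran from -0.19 to 0.14 for Vegfa minus Kdr, -0.0097 to 0.63 for Vegfb minus Flt1, -0.28 to 0.38 for Vegfc minus Flt4 and -0.32 to 0.50 for Angpt2 minus Tek. The cause was not tested for any of these. With single arrays left out, these stayed negative: Flt1 from -0.73 without control replicate 1 to -0.39 without CLA replicate 2, Vegfa from -0.46 without CLA replicate 4 to -0.048 without CLA replicate 3, Vegfb from -0.64 without control replicate 1 to -0.028 without CLA replicate 1, Kdr from -0.34 without CLA replicate 1 to -0.043 without CLA replicate 2, and Angpt1 from -0.41 without CLA replicate 2 to -0.052 without CLA replicate 4. Centring arrays on the median moved the median of all genes to 0.11 and the genes at an unadjusted p under 0.05 to 622 higher and 268 lower, where the scaling kept here gave 298 and 376. Over all genes, limma adjusted calls numbered 17 without CLA replicate 4, 2 without control replicate 1, 1 in the 28 arrays alone and 0 otherwise. Angpt2 was not tested with the mean of probe sets, nor Vegfc and Angpt2 with a filter at the 60th percentile. No paired analysis was possible because the labels give no pairing of CLA with control glands. The replicate numbers used here are not in the labels and follow the order of the samples in the series. Signal below the filter limits what the second probe sets of Angpt1 and Angpt2 can show.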
